A study of Mus musculus with 6 samples.

Results

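The 10 genes described here encode the MHC class II presentation machinery of the mouse: the chains H2-Aa, H2-Ab1 and H2-Eb1, the invariant chain Cd74, the transactivator Ciita, the peptide editor genes H2-DMa, H2-DMb1 and H2-DMb2, and the editor's modulators H2-Oa and H2-Ob. They were chosen by name, and all 10 were found among the 52369 genes of the deposited table of FPKM, which divides the fragments of a gene by its length and by the size of its library. The samples were tibialis anterior muscles, a muscle of the lower leg, from C57BL/6 mice injured at 5 weeks of age by cardiotoxin (50 µl at 10 µM), a venom protein that kills fibres and sets off their regeneration. The muscles of both groups were then injected with 6.25 µg of pcDNA3.1, a plasmid that drives expression in mammalian cells, mixed with a transfection reagent in 10% glucose, in 3 injections of which the last 2 fell on days 2 and 4, and were taken on day 7, when the mice were 6 weeks old. In 3 libraries, called L7, the long noncoding RNA Linc-smad7 was overexpressed, and 3 libraries were controls. The labels do not say what the control plasmid carried, which cells took up the plasmid, or whether each library came from a separate animal, so p-values here measure the spread between these libraries, which may be partly technical.

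MHC class II molecules are pairs of an alpha and a beta chain that show peptides from engulfed proteins to CD4 T cells. They are made mainly by dendritic cells, B cells and activated macrophages, and in healthy muscle fibres they are close to absent. Newly made chains are held by the invariant chain Cd74 until proteases cut it down to a short fragment in the groove, which H2-DM exchanges for antigenic peptide and which H2-O, in B cells and some dendritic cells, restrains. Nearly the whole set is switched on by Ciita, a coactivator that does not bind DNA itself but docks on the factors RFX, CREB and NF-Y at the conserved S, X and Y boxes before each gene. Interferon gamma, acting through the kinases JAK1 and JAK2 and the factor IRF1, is the classical inducer of Ciita outside of B cells and dendritic cells. C57BL/6 mice carry a deletion in the E alpha gene, so H2-Eb1 is transcribed without its partner chain.

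Letters of the Y box are shown for 4 members, with part of the X box where it was found, and not every member searched held them. The S box was not searched, and a promoter without the letters ACNGAT may still hold an X box. RefSeq promoter windows (GRCm38.p6, 250 bases before to 50 after each annotated start) were used for 7 of the 10 members, without H2-Ab1, Cd74 and Ciita. Each line gives 67 bases on chromosome 17, 5′ to 3′ on the strand of the gene, in lower case, with TGATTGG (the Y box that NF-Y binds) and, where it was found, ACNGAT (part of the X box) in capitals.
H2-Aa, minus strand, chr17:34287859-34287925: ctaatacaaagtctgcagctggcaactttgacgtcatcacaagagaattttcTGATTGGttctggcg
H2-Eb1, plus strand, chr17:34305754-34305820: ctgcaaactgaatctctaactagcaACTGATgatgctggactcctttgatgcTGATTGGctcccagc
H2-DMb2, plus strand, chr17:34145105-34145171: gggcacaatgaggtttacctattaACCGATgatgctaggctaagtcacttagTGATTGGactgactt
H2-Ob, plus strand, chr17:34238794-34238860: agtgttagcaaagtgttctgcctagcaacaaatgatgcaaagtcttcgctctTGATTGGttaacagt
The letters ACNGAT, followed on the same strand by ATTGG with 15 to 35 bases between, were found in 3 of the 7 members, H2-Eb1, H2-DMb1 and H2-DMb2. The same pair stood in 0.496% of all 32851 promoter windows, read on both strands. In H2-Eb1 23 bases lie between its 2 pieces, and in H2-DMb1 and H2-DMb2 24 bases. TGATTGG, which contains ATTGG and was searched on its own after the member windows had been seen, was present in 6 of the 7 members, all but H2-DMa, and in 7.82% of all windows on either strand. The segment of H2-DMb1, which lies in an annotated exon and is not printed, differed from that of H2-DMb2 at 7 of its 67 positions. A match of letters is a description and not a measured binding site, and no factor binding was measured here.

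Depth was similar in all libraries, with 19420012 to 24663153 reads in genes. The labelled tissue showed in its markers: Acta1, the actin of skeletal muscle fibres, was at 5718 to 33716 FPKM. L7 replicate 3 was the least like the others, with correlations of log2 values of 0.920 to 0.951 to them, against 0.979 to 0.989 among those 5. Its 10 most abundant genes took 14.1% of its reads, against 6.57% to 8.40% elsewhere, and its summed fibre marker level was 84938 FPKM, against 19183 to 31280. Reads of Y-linked genes were present in 3 libraries, Control replicates 1 and 3 and L7 replicate 1, so L7 replicate 1 and L7 replicate 2 differed in sex. Xist, which female cells transcribe from the inactive X chromosome, was at 0.10 FPKM in L7 replicate 1 and at 90.9 FPKM in L7 replicate 2. Across all 14788 genes with a mean of at least 1 FPKM, limma on log2(FPKM + 1) called 0 genes different between L7 and Control at an adjusted p of 0.05 (0% of genes), with a smallest adjusted p of 0.468, while 629 genes (4.25%) were lower in L7 at an unadjusted p under 0.05.

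The 4 most abundant members, the class II chains and Cd74, were among the strongly expressed genes of these muscles and swung together from library to library. H2-Aa, the A alpha chain (mm10 chromosome 17, 34282744 to 34287823, minus strand), was at 382, 287 and 544 FPKM in Control and at 103, 636 and 238 FPKM in L7. H2-Ab1, the A beta chain that pairs with it (chromosome 17, 34257689 to 34269419, plus strand), was at 495, 418 and 879 FPKM in Control and at 164, 995 and 408 FPKM in L7. The lowest and the highest library of both genes were L7 libraries, replicate 1 and replicate 2, and the 3 Control libraries lay between them. H2-Eb1, the E beta chain (chromosome 17, 34305867 to 34316674, plus strand), was at 247, 210 and 385 FPKM in Control and at 76.5, 457 and 187 FPKM in L7. Cd74, the invariant chain (chromosome 18, 60803848 to 60812652, plus strand), was at 347, 278 and 603 FPKM in Control and at 126, 650 and 269 FPKM in L7. The order of the 6 libraries was the same in all 4 genes: L7 replicate 2 was highest, followed by Control replicates 3, 1 and 2, then L7 replicate 3, with L7 replicate 1 lowest.

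Counting error was small beside these gaps. The 1873 reads of H2-Aa in L7 replicate 1 gave an exact Poisson 95% interval of 98.7 to 108 FPKM, and the 10768 reads in L7 replicate 2 gave 624 to 648 FPKM, both intervals covering counting error only. The highest library was 6.15 times the lowest for H2-Aa, 6.05 times for H2-Ab1, 5.97 times for H2-Eb1 and 5.14 times for Cd74. Together the 10 members took 0.0535% of the reads in L7 replicate 1 and 0.287% in L7 replicate 2, with 0.115% to 0.261% in the other 4 libraries. Because whole muscle was measured, fewer class II cells and less class II RNA per cell cannot be told apart.

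**Figure D1:**
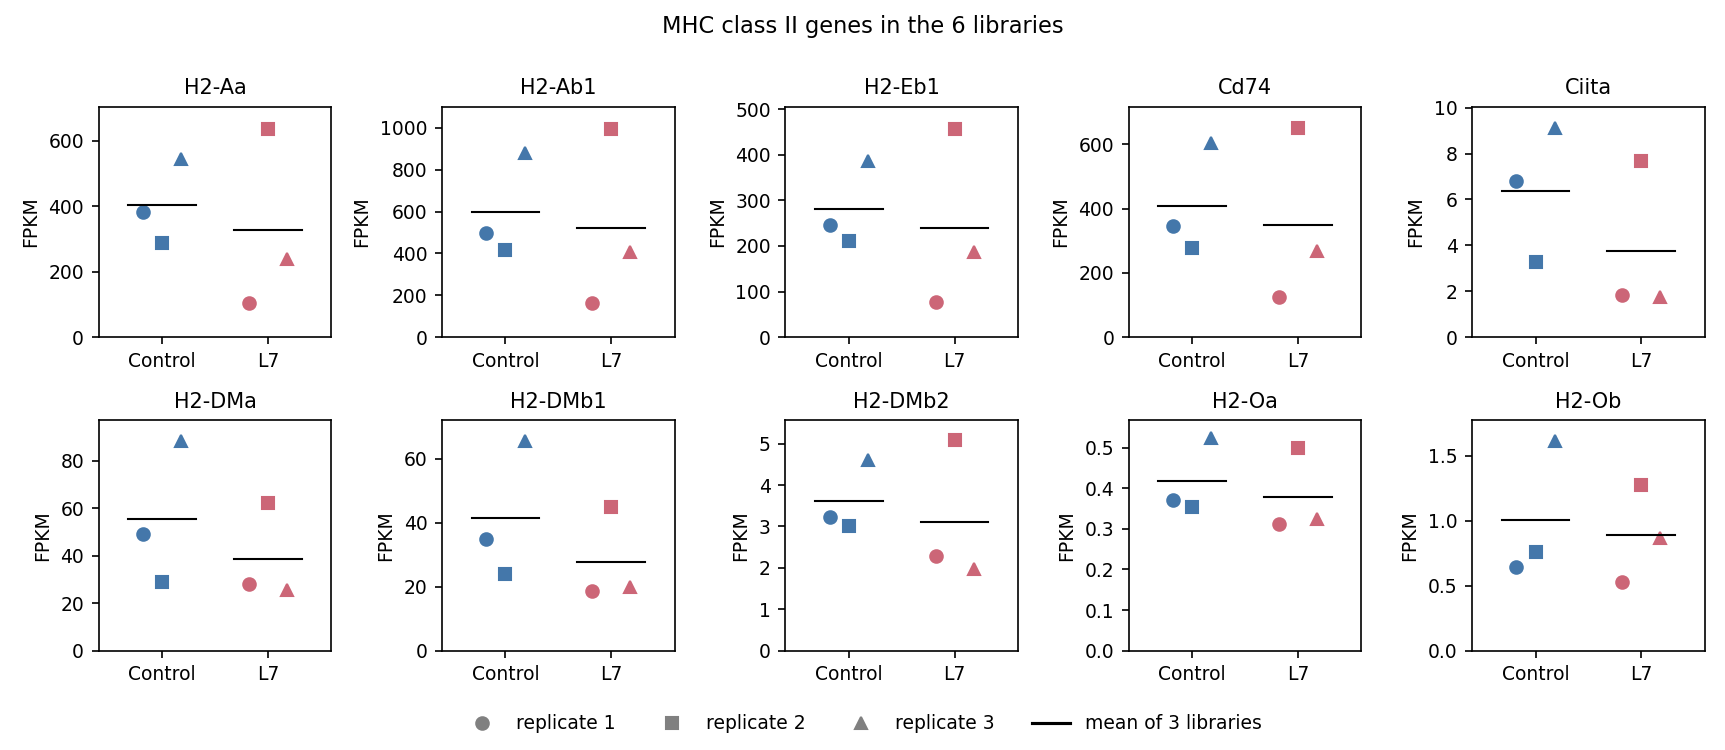
FPKM (linear axis from 0, a separate scale for each gene) of the 10 MHC class II genes in 3 Control and 3 L7 libraries, each point 1 library and each line the mean of 3. Control replicate 3 and L7 replicate 2 are the highest libraries in the panels of the 8 tested genes, and the groups overlap in every panel.

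Ciita, the transactivator of the set (chromosome 16, 10480059 to 10528418, plus strand), was far less abundant, at 6.79, 3.26 and 9.09 FPKM in Control and at 1.82, 7.70 and 1.73 FPKM in L7. L7 replicates 1 and 3 were the lowest libraries, while L7 replicate 2 lay between Control replicates 1 and 3. Its highest library was 5.24 times its lowest. Dexi, a gene on the opposite strand, overlaps Ciita, and with a strand setting not given in the sources used here, their reads in the shared stretch may not be separable.

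The peptide editors followed a similar order, with a smaller swing over the 6 libraries and, for H2-DMa and H2-DMb1, a larger one within Control. H2-DMa, the editor's alpha chain (chromosome 17, 34119541 to 34139101, plus strand), was at 49.2, 28.8 and 88.3 FPKM in Control and at 28.1, 62.3 and 25.4 FPKM in L7. H2-DMb1, a beta chain of the editor (chromosome 17, 34153072 to 34160230, plus strand), was at 34.8, 23.9 and 65.6 FPKM in Control and at 18.6, 44.8 and 19.8 FPKM in L7. For both, Control replicate 3 was the highest library rather than L7 replicate 2, and the range from lowest to highest was 3.48-fold and 3.52-fold. Within Control it was 3.07-fold and 2.75-fold, against 1.83-fold to 2.17-fold for the chains and Cd74. H2-DMb2, the second beta chain gene and a close copy of H2-DMb1 (chromosome 17, 34143307 to 34151555, plus strand), was at 3.23, 3.00 and 4.61 FPKM in Control and at 2.29, 5.09 and 1.96 FPKM in L7. H2-DMb2 was highest in L7 replicate 2, with a range within Control of 1.54-fold. Its 45 to 123 reads per library are uncertain, since reads from near-identical stretches may be split between the copies. H2-DMa overlaps Brd2, a more abundant gene of the opposite strand, so part of its reads may be Brd2's.

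The modulators H2-Oa and H2-Ob were near the limit of detection and below the filter for testing. H2-Oa (chromosome 17, 34092340 to 34095234, plus strand) had 8 to 15 reads per library, which came to 0.37, 0.36 and 0.52 FPKM in Control and 0.31, 0.50 and 0.33 FPKM in L7. H2-Ob (chromosome 17, 34238903 to 34254414, plus strand) had 19 to 65 reads, at 0.65, 0.76 and 1.62 FPKM in Control and 0.53, 1.27 and 0.87 FPKM in L7. The Poisson interval of H2-Oa in Control replicate 3, 0.29 to 0.86 FPKM, covered all its other values, so differences between libraries were not detectable for H2-Oa at this depth.

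Within a library the chains kept nearly fixed proportions. H2-Ab1 was 1.30 to 1.71 times H2-Aa in FPKM, H2-Eb1 was 0.646 to 0.786 times H2-Aa, and H2-Ab1 was 1.30 to 1.53 times Cd74 over the 6 libraries. The editor's alpha and beta chain kept step as well, with H2-DMb1 at 0.663 to 0.830 times H2-DMa. The proportion between editor and chains moved more. H2-DMa was at 0.272 times H2-Aa in L7 replicate 1, where the chains were lowest, against 0.0980 to 0.162 times in the other 5 libraries. Ciita was at 0.0178 to 0.0114 times H2-Aa in Control, and at 0.0176, 0.0121 and 0.0073 times in the L7 libraries in order of their number, the lowest being L7 replicate 3.

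The spread between libraries of a group was wide for these genes in both groups. The SD of log2(FPKM + 1) in Control was 0.46 for H2-Aa, 0.56 for H2-Ab1, 0.57 for Cd74, 0.64 for Ciita and 0.79 for H2-DMa, against a median of 0.146 over all genes tested. In L7 it was 1.31 for H2-Aa, 1.30 for H2-Ab1, 1.28 for H2-Eb1 and 1.18 for Cd74, against a median of 0.300. Between 78.6% and 98.9% of all genes tested had a smaller SD than a given member in Control, and between 85.3% and 99.4% in L7. The SD was larger in L7 than in Control for 6 of the 8 tested members, all but H2-DMa and H2-DMb1, and for 76.9% of all genes. Of the 14788 genes, 68 (0.460%) were more than 4 times higher in L7 replicate 2 than in L7 replicate 1. Among them were 5 members: H2-Aa, H2-Ab1, H2-Eb1, Cd74 and Ciita. These are the 2 libraries where the chains were lowest and highest, so the chains' place among the 68 follows from that choice.

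**Figure D2:**
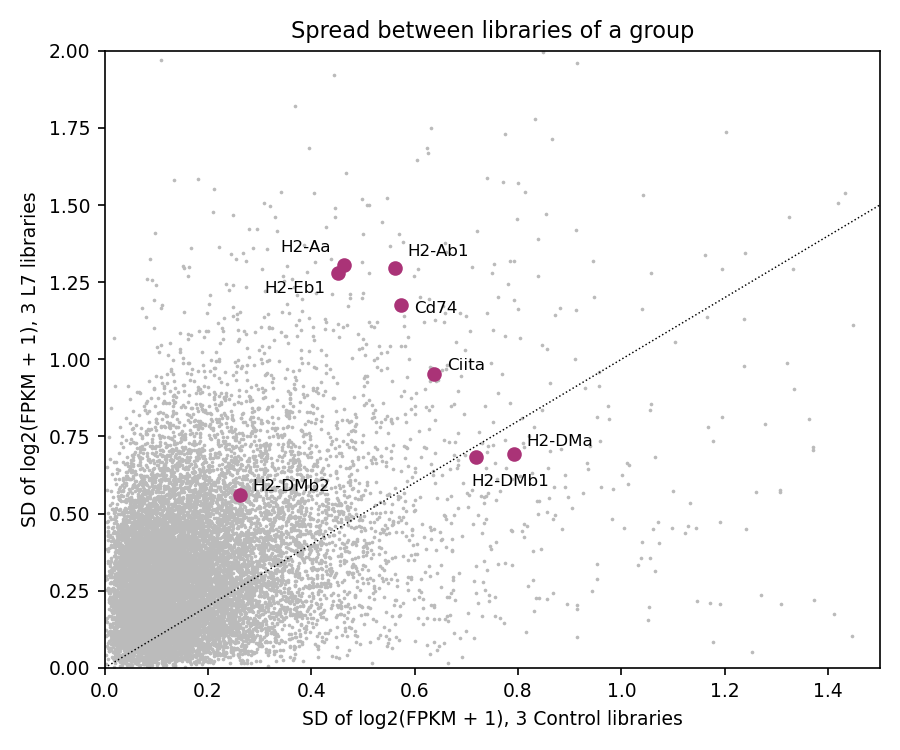
SD of log2(FPKM + 1) over the 3 L7 libraries against that over the 3 Control libraries, with each grey point 1 of the genes tested, the 8 tested members in purple and a dotted line where both are equal (17 genes lie outside the axes). H2-Aa, H2-Ab1, H2-Eb1 and Cd74 sit at an L7 SD of 1.18 to 1.31, and H2-DMa and H2-DMb1 lie just below the line.

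The comparison of L7 with Control asks whether overexpression of Linc-smad7 in injured muscle moved class II expression. All 8 tested members had a lower mean of log2 values in L7, but no difference passed the test: 0 of 8 were called, against 0% of all genes. H2-Aa averaged 404 ± 130 FPKM in Control and 326 ± 277 FPKM in L7 (SD, n = 3 each). Its log2 difference, L7 minus Control, was -0.64 (SE 0.61, 95% interval -2.06 to 0.78) with a limma adjusted p of 0.618. H2-Ab1 averaged 598 ± 247 and 522 ± 427 FPKM, and Cd74 409 ± 171 and 348 ± 270 FPKM (SD, n = 3 each). Their log2 differences were -0.48 (SE 0.62) and -0.46 (SE 0.58), and H2-Eb1 stood at -0.53 (SE 0.59). Ciita had the largest difference of the set, -0.77 (SE 0.51, 95% interval -1.96 to 0.41), with group means of 6.38 ± 2.94 FPKM and 3.75 ± 3.42 FPKM (SD, n = 3 each). H2-DMa stood at -0.49 (SE 0.46), H2-DMb1 at -0.56 (SE 0.44) and H2-DMb2 at -0.23 (SE 0.30). Over the 8 members the limma adjusted p ran from 0.580 to 0.704, and the two-sided exact permutation p from 0.3 to 0.6, in a design whose smallest possible value is 0.1.

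The median log2 difference of the 8 members was -0.51, beside -0.15 over all genes tested, of which 70.8% were lower in L7. All 8 intervals hold a reduction, no difference and an increase. They ran, for example, from -1.93 to 0.97 for H2-Ab1 and from -0.93 to 0.47 for H2-DMb2. The groups overlapped in all 8 members, whereas 19.2% of all genes had groups without overlap, 13.7% with L7 below Control. In the authors' deposited table, 9 of the 10 members had a negative log2 fold change, from -0.66 for Ciita to -0.0071 for H2-Ob, H2-Oa stood at 0.025, and 0 of 10 had an unadjusted p under 0.05, against 0.751% of the genes there that were lower in L7 at that level.

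Single libraries of both groups moved the size of the differences, and L7 replicate 1 the direction of some. Without L7 replicate 1 the log2 differences were 0.17 for H2-Ab1, 0.11 for H2-Eb1 and 0.11 for Cd74, now higher in L7, and -0.0042 for H2-Aa, while Ciita stayed at -0.51. Without L7 replicate 2 they were -1.31 for H2-Aa, -1.13 for H2-Ab1, -1.17 for H2-Eb1, -1.07 for Cd74 and -1.32 for Ciita. In that setting both remaining L7 libraries lay below all 3 Control libraries in 8 of 8 members, as they did in 21.3% of all genes. L7 replicate 2 was the highest L7 library of each tested member, so leaving it out favours this count. The members also largely rise and fall together, so no excess over the share of all genes can be read from it. The limma adjusted p of the members was still 0.470 or above. Without Control replicate 3 the median of the members was -0.17, with H2-Ab1 at -0.16, H2-DMa at -0.083 and H2-DMb1 at -0.17, the values nearest to 0 of those 2 editor genes when any library was left out. Without Control replicate 2 the median was -0.79.

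**Figure D3:**
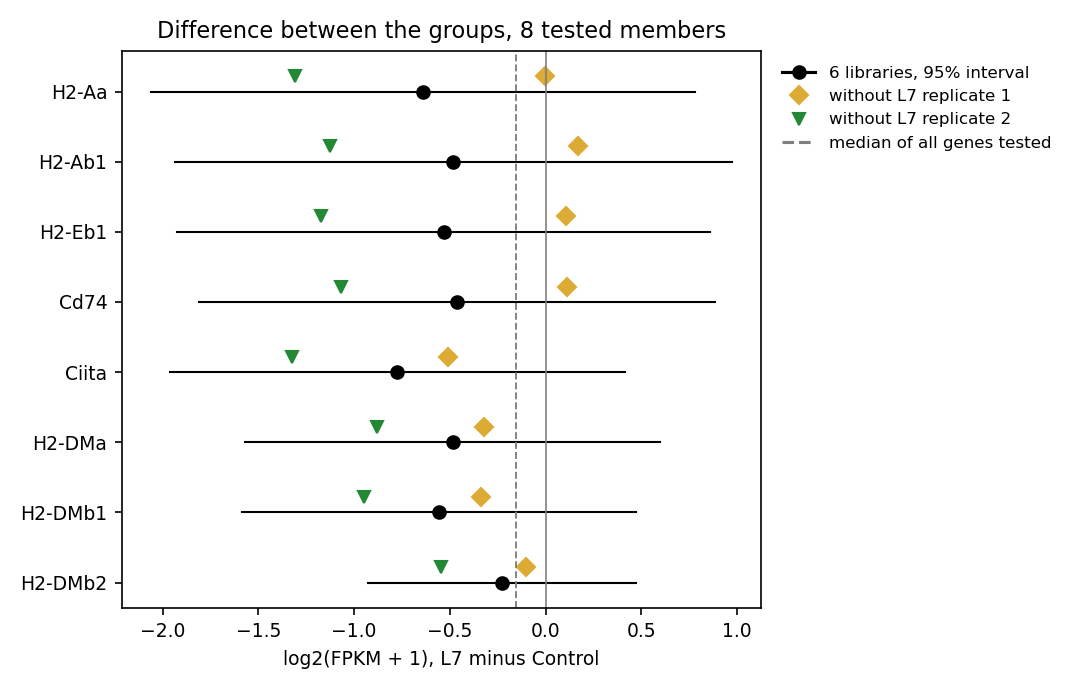
Difference of mean log2(FPKM + 1), L7 minus Control, for the 8 tested members: black points and bars give the value and 95% interval from all 6 libraries, diamonds the value without L7 replicate 1, triangles that without L7 replicate 2, and the dashed line the median of all genes tested (-0.15). All 8 intervals include 0, and the diamonds of H2-Ab1, H2-Eb1 and Cd74 lie above 0.

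The wider pathway was taken from a list of 36 further genes, of which 35 were in the table and 33 were tested. In limma 0 of the 33 passed the adjusted test, and 31 were lower and 2 higher in L7, beside 70.8% of all genes lower. At an unadjusted p under 0.05, 7 were lower and 0 higher, against 4.25% of all genes that were lower at that level. Without overlap, 9 lay lower in L7 and 0 higher, against 13.7% of all genes with L7 below Control. The median log2 difference of the 33 was -0.33, again beside -0.15 for all genes. The directions depended in part on scaling. After scaling by median of ratios, which moved the median of all genes to -0.0029, 27 were lower and 6 higher, and 0 passed.

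Of the genes that carry the interferon gamma signal to Ciita, 9 of 9 had a negative log2 difference, against 70.8% of all genes. In 5 of the 9 L7 lay below Control without overlap, against 13.7% of all genes. The median of the 9 was -0.69, beside -0.15 for all genes. Ifng, interferon gamma itself, was at 4.77, 2.53 and 5.73 FPKM in Control and at 0.80, 2.13 and 1.55 FPKM in L7, a log2 difference of -1.09 (SE 0.30). Irf1, the factor that binds the inducible Ciita promoter, was at 312, 175 and 328 FPKM in Control and at 114, 163 and 74.6 FPKM in L7, a log2 difference of -1.23 (SE 0.35). In both genes each L7 library lay below each Control library. For Ifng this rests on few reads, 39 to 112 in Control and 14 to 35 in L7. Its nearest libraries, L7 replicate 2 and Control replicate 2, had 35 and 39 reads. Socs1, an inhibitor of the JAK kinases that the same signal induces, was at 86.5, 53.7 and 128 FPKM in Control and at 27.7, 50.3 and 34.9 FPKM in L7, a log2 difference of -1.18 (SE 0.34). Jak2, a kinase at the receptor that was named after its values had been seen, was at 29.0, 22.4 and 27.6 FPKM in Control and at 18.6, 18.6 and 11.6 FPKM in L7. The limma adjusted p of Ifng, Irf1, Socs1 and Jak2 was 0.580. Jak1, at 125 to 183 FPKM over the 6 libraries, had groups that overlapped and a log2 difference of -0.18 (SE 0.17).

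Between the L7 libraries these signal genes ran partly with the class II chains. Ifng and Socs1 had the chains' order, replicate 2 highest and replicate 1 lowest, and replicate 2 was 2.68 and 1.82 times replicate 1, where H2-Aa had 6.15 times. The ratio of Ifng rests on 35 against 14 reads. Irf1 and Jak2 were lowest in replicate 3, and replicate 2 was 1.43 and 1.00 times replicate 1. In L7 replicate 2, Irf1 and Socs1 were below their lowest Control library while the chains were above their highest. Control replicate 2 was the lowest Control library for Ifng, Irf1, Socs1 and Jak2 as well as for the chains and Ciita.

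**Figure D4:**
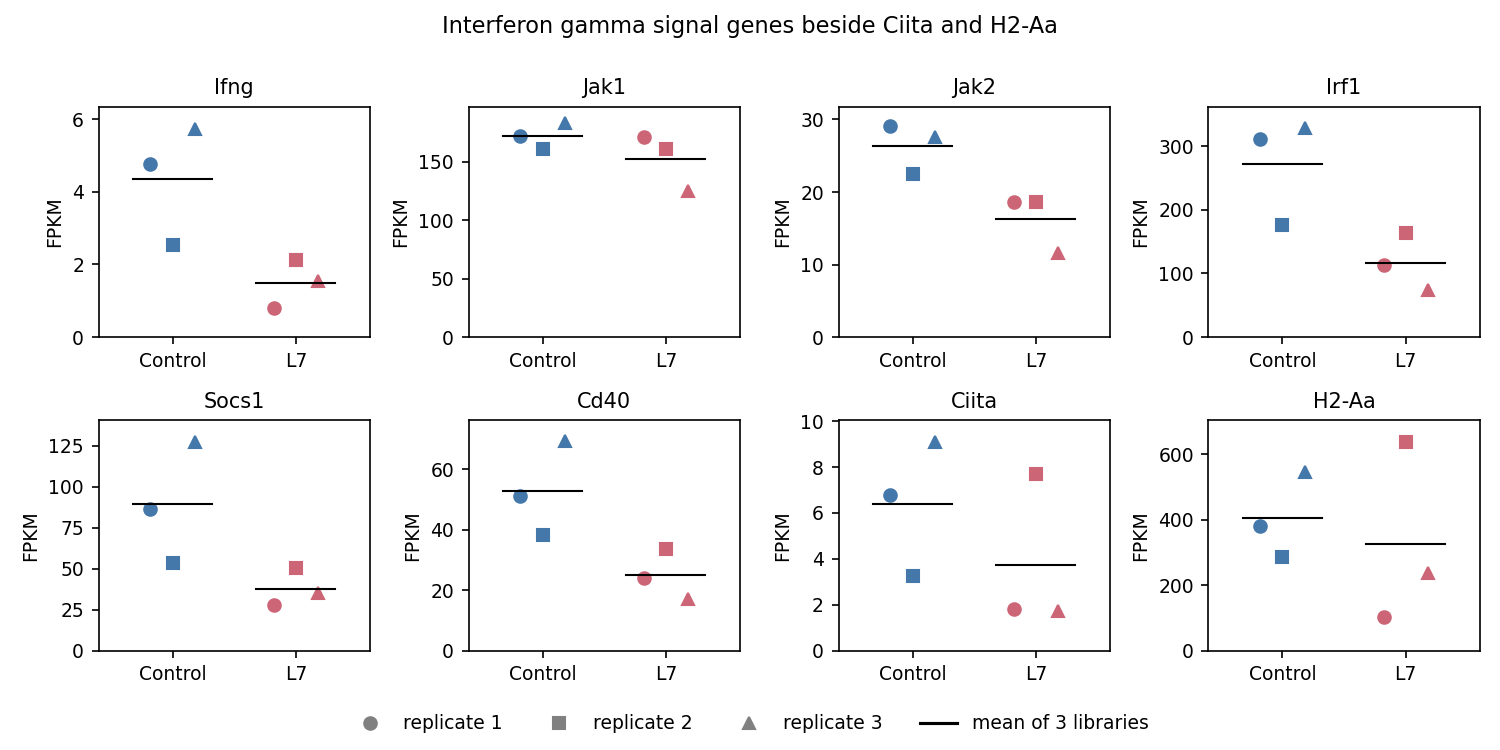
FPKM (linear axis from 0, a separate scale for each gene) of 5 interferon gamma signal genes, the costimulatory receptor Cd40, Ciita and H2-Aa, each point 1 library and each line the mean of 3. The L7 points of Ifng, Jak2, Irf1, Socs1 and Cd40 lie below all Control points, whereas the groups overlap for Jak1, Ciita and H2-Aa.

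The factors that bind the promoter boxes varied little beside the chains. Of the 7 genes for RFX, NF-Y and CREB1, 6 had a negative log2 difference, against 70.8% of all genes. In 2 of the 7 L7 lay below Control without overlap, against 13.7% of all genes. Rfxank, a subunit of RFX, was at 4.51, 3.96 and 4.33 FPKM in Control and at 3.76, 3.62 and 3.71 FPKM in L7, a log2 difference of -0.16 (SE 0.14). After scaling by median of ratios the log2 difference of Rfxank was -0.021 (SE 0.14). Creb1, which binds beside RFX, was at 20.3, 17.5 and 19.3 FPKM in Control and at 17.1, 16.0 and 8.97 FPKM in L7, a log2 difference of -0.46 (SE 0.24). Nfyc and Nfya, subunits of NF-Y, had overlapping groups, with Nfyc between 42.1 and 44.8 FPKM in all 6 libraries and Nfya between 34.1 and 37.5 FPKM in 5 libraries and at 16.0 FPKM in L7 replicate 3.

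The proteases that trim the invariant chain and cut antigens were abundant and had groups that overlapped, with 8 of 8 lower and 0 without overlap. Of all genes, 70.8% were lower in L7 and 13.7% had L7 below Control without overlap. Ctss, cathepsin S, which makes the last cuts of Cd74 in dendritic cells and B cells, was at 1173, 942 and 1519 FPKM in Control and at 1173, 1086 and 444 FPKM in L7. Ctsb, cathepsin B, was at 681, 619 and 758 FPKM in Control and at 827, 578 and 348 FPKM in L7. For both the lowest library was L7 replicate 3, and L7 replicate 1 was not below the Control range, unlike for the chains.

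Of the surface genes, the ubiquitin ligases Marchf1 and Marchf8, which take class II and its partners off the surface, stood at log2 differences of -0.52 (SE 0.36) and -0.14 (SE 0.19), with overlap. Cd40, the receptor through which T cells activate antigen presenting cells, was at 51.2, 38.3 and 69.2 FPKM in Control and at 24.1, 33.6 and 17.2 FPKM in L7. Its groups did not overlap, and its log2 difference was -1.06 (SE 0.29, limma adjusted p 0.580). Cd86, a ligand of CD28, stood at -0.71 (SE 0.30) with overlap. On the T cell side, Cd4, the coreceptor that binds class II, was at 13.0, 16.9 and 16.2 FPKM in Control and at 14.7, 27.0 and 15.9 FPKM in L7, highest in the library where the chains were highest. Lag3, an inhibitory receptor for class II, stood at -0.43 (SE 0.34).

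In the class II region itself, H2-Eb2, a further E beta gene, was at 0.17 to 1.05 FPKM, below the filter, with its highest value in L7 replicate 2 like the chains. The E alpha pseudogene H2-Ea-ps had 1 read, in Control replicate 1. Brd2, a chromatin reader that lies among these genes without being a presentation gene, was at 145 to 164 FPKM in Control and at 139, 139 and 101 FPKM in L7, a log2 difference of -0.28 (SE 0.18) without overlap.

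Markers of the cells that carry class II were measured beside the chains. The 10 macrophage markers, among them the complement genes C1qa to C1qc and Lyz2, summed to 3998, 3623 and 5141 FPKM in Control and to 5109, 4253 and 2641 FPKM in L7. L7 replicate 1 thus had the second highest macrophage sum and the lowest chains. The mean log2 level of the 4 chain genes exceeded that of the macrophage markers by 0.86, 0.69 and 1.16 in Control and by 1.77 and 1.27 in L7 replicates 2 and 3, and fell short of it in L7 replicate 1, at -1.09. Of the macrophage markers 10 of 10 had a negative log2 difference between the groups, against 70.8% of all genes, with a median of -0.22. For 0 of them the groups did not overlap, against 13.7% of all genes with L7 below Control.

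Dendritic cell markers as a list followed the chains more closely than the macrophage list did, at a far lower level, but not every gene of the list did. Their 11 genes summed to 68.4, 55.2 and 83.4 FPKM in Control and to 49.9, 89.6 and 48.5 FPKM in L7. The sum was highest in L7 replicate 2 like the chains, but lowest in L7 replicate 3. Batf3, a factor needed by cross-presenting dendritic cells, was at 6.99, 6.69 and 13.0 FPKM in Control and at 4.21, 10.1 and 5.75 FPKM in L7. It is also among the genes picked below for their correlation with the chains. Itgax, the integrin CD11c, was at 32.6, 24.0 and 22.7 FPKM in Control and at 18.6, 41.2 and 8.40 FPKM in L7, and Clec10a, a lectin of dendritic cells and macrophages, ran from 9.55 to 23.4 FPKM in Control and from 16.0 to 21.2 FPKM in L7. Zbtb46, also of this list, stayed between 4.08 and 4.85 FPKM in all 6 libraries. Of the dendritic markers 6 of the 8 tested had a negative log2 difference, against 70.8% of all genes, with a median of -0.20. The chain genes exceeded the mean log2 level of the dendritic list by 6.20 to 6.96 in 5 libraries and by 5.15 in L7 replicate 1.

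B cell markers were low, with 2 of 8 passing the filter: Cd22 at 5.18 to 9.52 FPKM and Cd79b at 1.79 to 3.20 FPKM. The 8 summed to 9.23, 12.8 and 15.0 FPKM in Control and to 9.48, 15.3 and 8.59 FPKM in L7. This sum too was highest in L7 replicate 2 and Control replicate 3, but lowest in L7 replicate 3. Ms4a1, which encodes CD20, was at most at 0.32 FPKM, with 0 reads in L7 replicate 3. The 6 T cell markers summed to 48.7, 41.2 and 60.5 FPKM in Control and to 40.7, 70.4 and 39.0 FPKM in L7, highest in L7 replicate 2 and in Control replicate 3, as were the chains. Endothelial markers, by contrast, lay between -0.15 and 0.14 of their mean log2 level in all 6 libraries. Between the group means, fibre markers moved the other way from the members: 8 of 8 had a positive log2 difference, whereas 70.8% of all genes were lower. Their median was 0.93, beside -0.15 for all genes. Of these fibre markers 3, Acta1, Myh4 and Mylpf, lay higher in L7 without overlap, against 5.49% of all genes. Their sum was 19183, 26758 and 25042 FPKM in Control and 29139, 31280 and 84938 FPKM in L7, so it did not overlap with or without L7 replicate 3. The opposite direction did not hold library by library. L7 replicate 1 stood at -1.51 for the chains and -0.21 for the fibre markers, as log2 differences from each list's mean. L7 replicate 2 stood at 1.02 and 0.032, and L7 replicate 3, by far the highest for the fibre markers, at -0.30 and 1.42. Of 5 regenerating fibre markers, a list of its own, 4 had a negative log2 difference, against 70.8% of all genes, with a median of -0.15. The part of the cell makeup in the class II levels was not tested.

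**Figure D5:**
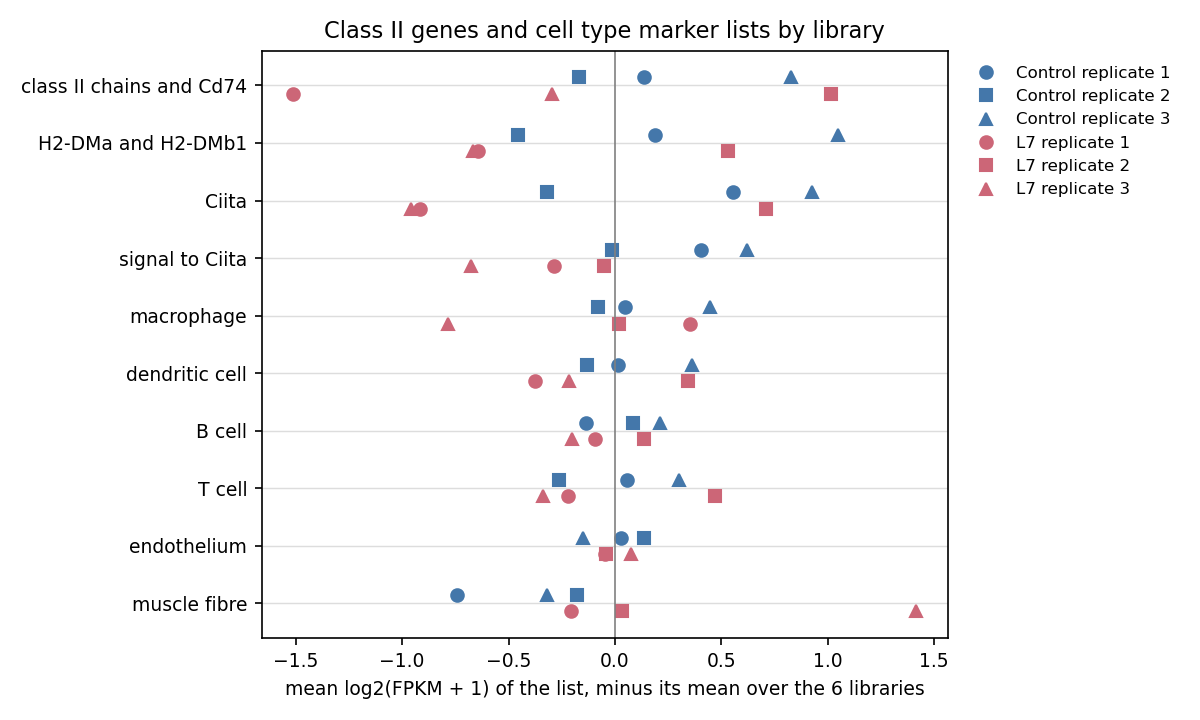
Mean log2(FPKM + 1) of the class II chains with Cd74, of the editor pair, of Ciita, of the interferon gamma signal genes and of 6 marker lists in each library, as the difference from the mean of that list over the 6 libraries (0, grey line). L7 replicate 1 is at -1.51 for the chains and at 0.35 for the macrophage markers, and L7 replicate 2 is highest for the chains and for the T cell markers.

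Among the 10544 genes with a mean of at least 5 FPKM, 13 (0.123%) had a Pearson correlation of at least 0.9 over the 6 libraries with the mean log2 level of the chains and Cd74, those 4 genes included. Ciita reached 0.859, H2-DMb1 0.863 and H2-DMa 0.803. Other named genes near to them were Wrap53 at 0.965, Batf3 at 0.933, Cd2 at 0.913, Nsmaf at 0.910, Ltb at 0.905, Mfng at 0.903 and Phf1 at 0.879. A high correlation did not mean a like size of change: Wrap53 ran only from 7.09 to 8.64 FPKM, and its highest library was Control replicate 3. Cd2, an adhesion receptor of T cells and natural killer cells, ran from 5.40 to 14.7 FPKM, and Ltb, lymphotoxin beta, from 8.82 to 21.5 FPKM, each with its lowest value in L7 replicate 1. All points of these correlations share the same 6 libraries, and the genes were picked for their values.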

How the data were processed

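RNA was read in 6 libraries, 3 per group, made from polyadenylated RNA per the labels. The authors deposited FPKM per gene and library, and a comparison table with, per the file headers, each group's mean signal, that is, size-factor normalised reads, and a log2 fold change with its p-value. The authors also deposited Gene Ontology tables with a p-value and a corrected p-value per term. Per the submitters' processing notes the build was mm10 and the tools were DESeq 1.12.0, HISAT2 2.0.4, TopHat2 2.0.12 and Bowtie2 2.2.3. The counting program, its strand setting and its gene models were not given in the sources used here.

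Symbols, found for 51633 genes, and coordinates came from GENCODE M21 by Ensembl identifier. The steps between FPKM values and the deposited group means gave back whole reads for 152096 of 152096 values above 0 (within 0.05, 100%). They served for depth, Poisson intervals and an alternative fit with limma voom, which called 0 genes. Groups were compared on log2(FPKM + 1) in R 4.3.3 by limma 3.58.1, with its variance trend, two-sided, with group alone in the model, over the 14788 genes whose mean FPKM reached 1. P-values were adjusted after Benjamini and Hochberg over all 14788, at a threshold of 0.05. On this scale the log2 difference of a weakly expressed gene comes out too small. Scripts were tested on simulated data. Tables and figures used Python 3.11.15, pandas 2.3.3, numpy 2.4.6, scipy 1.17.1 and matplotlib 3.10.9.

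The members and the lists were chosen with earlier results of these data known. Named genes were all 10 members, in each role or marker group the 2 of highest mean FPKM and up to 3 without overlap, and the 8 genes nearest to the chains in correlation, with names of the Gm or Rik kind left out; some genes these rules cover are not reported here. Jak2, Cd86, Lag3, Marchf8 and other list genes beyond that rule were named after their values were seen. Same-numbered libraries of the 2 groups were not paired: their deviations from the group means correlated at 0.322, -0.065 and 0.087. Alternatives covered scaling by median of ratios, the pseudocount, the filter, each library left out, library weights, the replicate number as a block, Y-linked reads as a covariate and limma voom.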

Additional observations from a re-analysis of the deposited data

How the results depend on the processing

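Of 14 alternatives, every one left 0 of the tested members called, with limma adjusted p-values of single members from 0.470 to 0.9996, and 106 of 112 single member values kept their direction. The median log2 difference of the members ran from -1.10 to -0.05 as each library was left out, and was -0.34 after scaling by median of ratios, which moved the median of all genes to -0.0029. With the replicate block it was -0.51 and 0 genes and 0 members were called, and the block changed no other call. Over all genes the count of calls, 0, became 1 without L7 replicate 1 (range 0 to 1 over the libraries left out), 1 with median of ratios scaling and L7 replicate 3 left out, and 3 with library weights. The count of members without overlap ranged from 0 to 8 over the libraries left out, the 8 without L7 replicate 2. As each library was left out, H2-Ab1 ran from -1.13 to 0.17, H2-Eb1 from -1.17 to 0.11, Cd74 from -1.07 to 0.11, Cd4 from -0.0040 to 0.41, Nfyc from -0.011 to 0.021, Ctsb from -0.61 to 0.017 and Marchf8 from -0.24 to 0.056. The positive values of the members were those without L7 replicate 1. With library weights the direction turned for H2-DMa (0.0094), H2-DMb2 (0.10) and Marchf8 (0.0088), with median of ratios scaling for Marchf8 (0.035), and with that scaling and L7 replicate 3 left out for H2-DMb2 (0.0010), Ctsb (0.053) and Marchf8 (0.092). Nfyc turned to -0.011 without Control replicate 1 and to -0.0072 without L7 replicate 3. The cause was not tested in any of these. The low read numbers of H2-Oa and H2-Ob limit what can be read from them: without the filter their log2 differences were -0.04 and -0.07.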

Other observations

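Beside the 5 class II members, the 68 genes more than 4 times higher in L7 replicate 2 than in L7 replicate 1 held 26 immunoglobulin genes (segments and constant regions) of the 50 tested and 5 T cell receptor segments, while 50 genes were more than 4 times higher the other way. Some of the 68 had no reads in L7 replicate 1, and reads in single segments are few. Igkc, the kappa light chain constant region made by B cells and plasma cells, was at 65.1, 73.7 and 104 FPKM in Control and at 42.5, 164 and 150.0 FPKM in L7. Jchain, which joins secreted antibodies into polymers, was at 3.79, 5.19 and 7.43 FPKM in Control and at 3.14, 10.9 and 8.06 FPKM in L7. Both were lowest in L7 replicate 1 like the chains, but unlike the chains both were above all Control libraries in L7 replicate 3. These genes were named after their values were seen. Of the 1155 genes with a mean of at least 100 FPKM, 5 were among the 68: H2-Aa, H2-Ab1, H2-Eb1, Cd74 and the gene model Gm5559. For the chains and Cd74 this follows from comparing their own lowest and highest libraries. Gm5559 was at 39.7 to 52.5 FPKM in 4 libraries and at 527 and 666 FPKM in L7 replicates 2 and 3.

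The authors' deposited Gene Ontology table lists response to interferon-gamma with 24 of its 109 genes, all lower in L7, at a corrected p-value of 3.61e-20, among them Ifng, Irf1, Socs1 and Cd40. In the same table MHC class II biosynthetic process held 1 gene of 12, Ifng, with a corrected p-value of 1, and antigen processing and presentation held 1 gene of 104, again Ifng, with a corrected p-value of 1. The genes entering the authors' table were chosen at an unadjusted p, and none of the 10 members was among them. Gm4841, an interferon-inducible GTPase gene, was at 82.1, 41.1 and 178 FPKM in Control and at 13.3, 81.0 and 96.9 FPKM in L7, with its lowest value in L7 replicate 1, where the chains were lowest too.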
